A study of Drosophila melanogaster with 20 samples.

Results

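Among 15473 transcripts measured in heads of adult Drosophila melanogaster, 53 were lower in flies with RNA interference against ATM in glia and also in flies with RNA interference against ATM in neurons, each set against flies that carried the driver alone. A transcript was taken as a member when the mean log2 RMA level was at least 0.5 lower in Repo-ATMi than in Repo-GAL4 heads and at least 0.5 lower in Elav-ATMi than in Elav-GAL4 heads. Every ATMi array also had to lie below every driver-only array in both comparisons. The 2 differences alone were met by 98 transcripts, of which 45 were left out because arrays overlapped in at least 1 comparison. The separation of arrays alone, in both comparisons, was met by 192 transcripts. The members were thus chosen by the Repo and Elav levels themselves, so the Repo and Elav differences below are a description. The tests are those in a second neuronal driver and in the ATM8 mutant, whose arrays the choice did not use. Their errors come from 1 fit of all 20 arrays and so also take in the spread of the Repo and Elav arrays that chose the members, where the required separation favours a small spread. The counts of calls are therefore also given from the 8 ElavC155 and ATM8 arrays alone.

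Total RNA of heads was hybridised to 20 single-colour arrays, 1 per sample. The groups used for the choice were Repo-ATMi (Repo-GAL4/UAS-RNAiATM, 2 samples) against Repo-GAL4 (Repo-GAL4/+, 2 samples), and Elav-ATMi (Elav-GAL4/+ with UAS-RNAiATM/+, 4 samples) against Elav-GAL4 (Elav-GAL4/+, 4 samples). The groups used to follow the members were ElavC155-ATMi (ElavC155-GAL4/+ with UAS-RNAiATM/+, 2 samples) against ElavC155-GAL4 (ElavC155-GAL4/+, 2 samples), and ATM8/ATM8 (2 samples) against ATM8/+ (2 samples). All driver flies had the w1118 background, were kept at 25°C and were 4 to 6 days old. The ATM8 flies had a pp e1 background, were reared at 18°C and then held for 3 days at 25°C, with no age in the labels beyond collection 0 to 3 days after eclosion. The genotypes place the Repo driver on chromosome 3, the Elav driver on chromosome 2, the ElavC155 driver on the X chromosome and the interference transgene on chromosome 3. The driver-only controls carried no interference transgene, so interference and any sequence that comes with the transgene chromosome cannot be told apart in the 3 driver comparisons. In the ATM8 comparison, the ATM8 allele and any sequence linked to it cannot be told apart either.

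ATM is a protein kinase that is activated by DNA double-strand breaks and phosphorylates checkpoint and repair proteins. In the fly it is encoded by tefu. The GAL4 protein, made from a driver in a chosen cell type, switches on transgenes that carry UAS sites. Repo is a homeodomain transcription factor of glia, and Elav is an RNA-binding protein of neurons, so their drivers send the interference transgene to glia and to neurons. In total head RNA, fewer cells of a type and less RNA per cell cannot be told apart. The array table names transcripts by FlyBase identifier without a gene. Of its identifiers, 44 occur in the RefSeq gene table used here, and 0 of the 53 members do. No gene name, function or sequence is therefore given for a member, and neither the marker genes of glia, neurons and photoreceptors nor tefu could be looked up to check the labels.

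The 8 ATM8 and Repo arrays had median levels between 10.45 and 10.63 (log2 RMA), and the 12 Elav and ElavC155 arrays between 10.84 and 10.93. Each comparison lies within 1 of these sets, so levels are compared across sets below only as a description. The lowest correlation between replicates, across transcripts, was 0.976. The labels do not say how the biological replicates were made, and the p-values cover only the spread among the samples at hand.

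Across the 53 members the Repo difference had a median of -0.82 and ran from -2.45 to -0.50, beside a median of -0.02 over all transcripts. The Elav difference had a median of -0.88 and ran from -5.40 to -0.50, beside -0.01 over all transcripts. The fall was the larger one in Repo-ATMi heads for 23 members and in Elav-ATMi heads for 30. By limma (adjusted p under 0.05 over all transcripts), 15 members passed in the Repo comparison, where 1.34% of all transcripts were called lower, and 34 in the Elav comparison, where 0.608% were. Lower levels without overlap were met by 25.8% of all transcripts in the Repo comparison and by 2.7% in the Elav comparison. Because the rule used both contrasts, nothing is read from these shares.

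**Figure D1:**
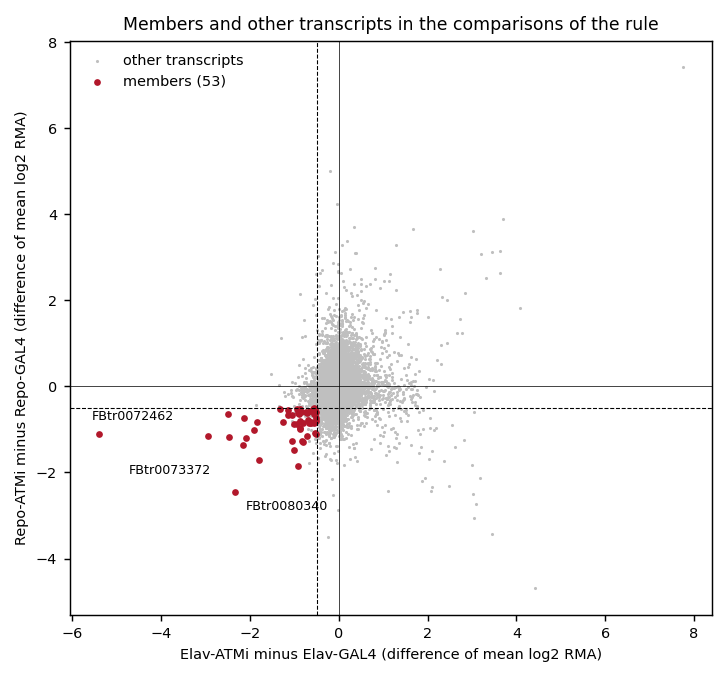
Difference of mean log2 RMA level in the Elav comparison (horizontal axis) and in the Repo comparison (vertical axis), 1 point per transcript, with the 53 members in red, the others in grey and the limits of -0.5 dashed. The members lie in the lower left corner, with FBtr0072462 farthest left of them at -5.40 and FBtr0080340 lowest of them at -2.45. The 45 transcripts that met both limits but had overlapping arrays lie there too, in grey.

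The 10 leading members, ranked by the smaller of their 2 differences, were lower by at least 1.01 on the log2 scale in both comparisons. FBtr0080340 led them, at 7.75 and 7.53 in Repo-ATMi heads against 10.31 and 9.88 in Repo-GAL4 heads. In Elav-ATMi heads it stood at 7.82, 8.47, 7.90 and 7.94, against 10.47, 10.72, 10.34 and 9.93 in Elav-GAL4 heads. Its differences were -2.45 and -2.33, with a wide gap between the nearest arrays in each comparison.

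FBtr0073372 had levels of 7.82 and 8.13 in Repo-ATMi heads against 9.87 and 9.51 in Repo-GAL4 heads. Its Elav-ATMi arrays lay at 8.31, 8.49, 7.75 and 7.57, against 10.28, 9.45, 9.73 and 9.85 in Elav-GAL4 heads. As with FBtr0080340, the glial and neuronal differences were of like size, -1.71 and -1.80.

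Among the Repo and Elav differences of the members, the largest was that of FBtr0072462. It stood at 5.45, 4.84, 5.44 and 6.27 in Elav-ATMi heads, against 10.90, 10.37, 10.98 and 11.35 in Elav-GAL4 heads. In Repo-ATMi heads it stayed high, at 10.75 and 10.30, against 11.67 and 11.61 in Repo-GAL4 heads. The neuronal difference was therefore -5.40 and the glial one -1.12, the most unequal pair among the members.

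Several leading members had dim levels in the knockdown heads of both kinds. FBtr0080690 was at 5.47 and 5.34 in Repo-ATMi heads against 6.96 and 6.57 in Repo-GAL4 heads, and at 5.37 to 5.71 in the 4 Elav-ATMi samples against 7.34, 6.80, 8.25 and 8.52 in Elav-GAL4 heads. FBtr0076962 was at 5.53 and 5.27 in Repo-ATMi heads against 6.63 and 6.49 in Repo-GAL4 heads, and at 5.22, 5.08, 5.21 and 4.56 in Elav-ATMi heads against 7.66, 7.55, 8.13 and 8.49 in Elav-GAL4 heads. These knockdown levels lie near the bottom of the arrays' range, and RMA levels carry no detection flag, so the folds of these members have no measured floor.

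The rest of the 10 ran from dim to bright. FBtr0070003 was at 7.71 and 8.26 in Repo-ATMi heads against 9.13 and 9.22 in Repo-GAL4 heads, and its Elav difference was -2.48. FBtr0074235, the brightest of them, was at 11.41 and 11.14 in Repo-ATMi heads against 12.53 and 12.58 in Repo-GAL4 heads, and its Elav difference was -1.06. FBtr0076963, FBtr0081139 and FBtr0076864 had Repo differences of -1.19, -1.01 and -1.47 and Elav differences of -2.09, -1.91 and -1.01. In Elav-ATMi heads FBtr0076963 was as dim as FBtr0076962, with a mean of 5.18, against 7.27 in Elav-GAL4 heads. For FBtr0081139 the Repo-ATMi arrays were far apart, at 5.95 and 7.25, against 7.59 and 7.63 in Repo-GAL4 heads.

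**Figure D2:**
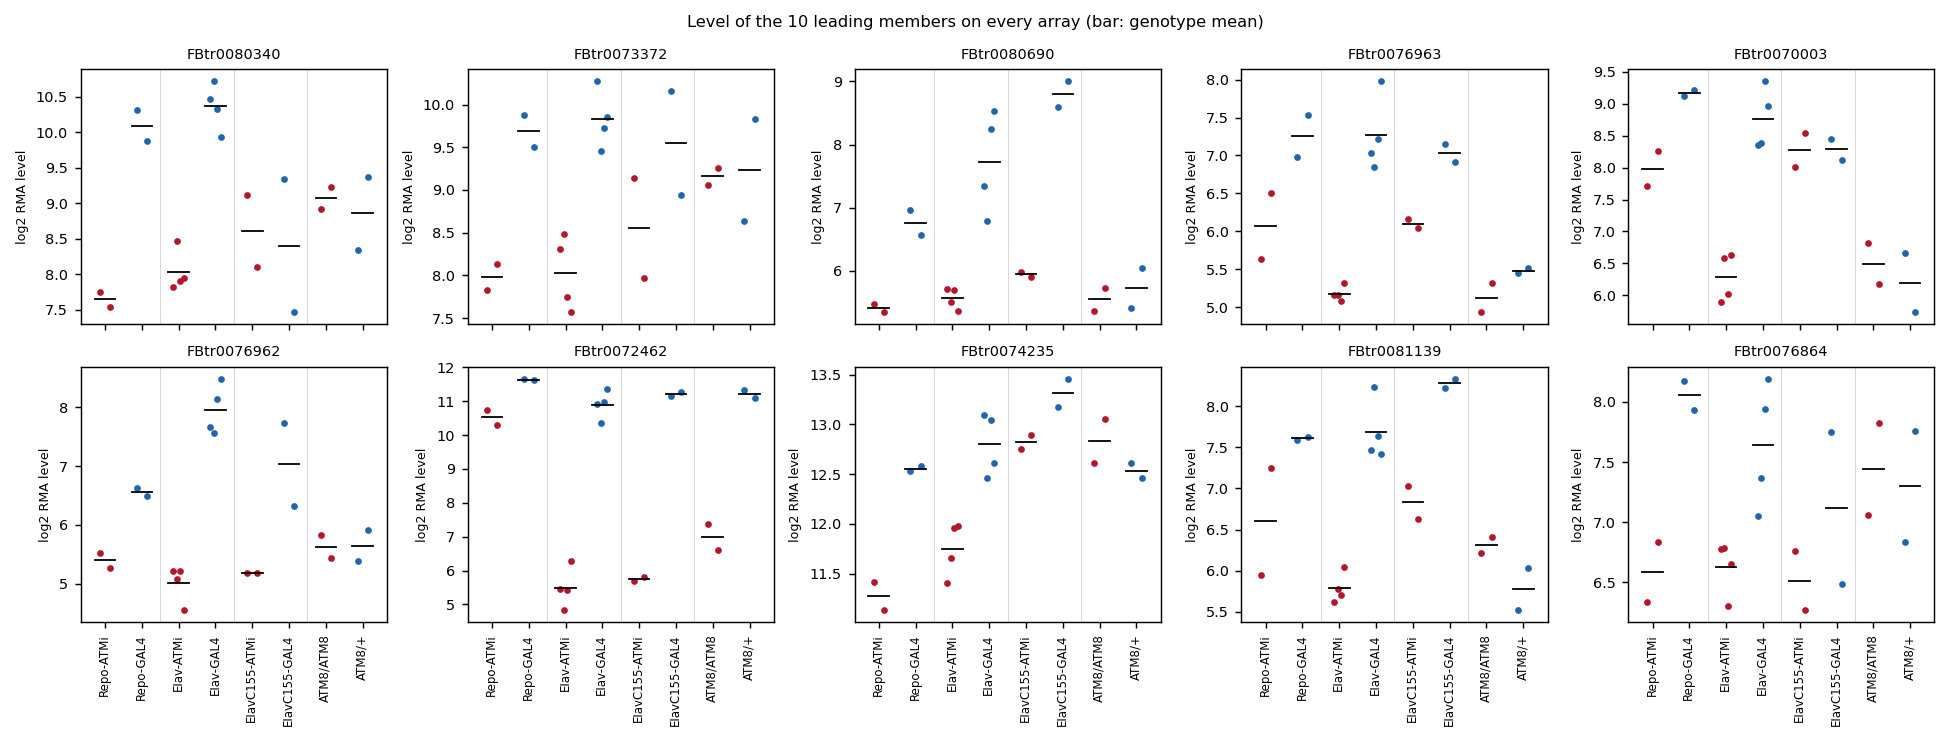
Log2 RMA level of the 10 leading members on every array, with 8 genotypes along each horizontal axis, ATMi and ATM8/ATM8 samples in red, driver-only and ATM8/+ samples in blue, and a bar at each genotype mean. Red and blue separate in the Repo and Elav panels of all 10, as the choice required. In the ElavC155 panels the red arrays lie below the blue for 6, beside 20.7% of all transcripts. In the ATM8 panels they lie below the blue for 2, beside 20.5% of all transcripts. For FBtr0074235 and FBtr0081139 they lie above the blue there, as for 22.9% of all transcripts.

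At the edge of the choice, the 3 members nearest the limit were FBtr0071565, FBtr0084241 and FBtr0074914, whose smaller differences were -0.50, -0.50 and -0.51. The nearest transcripts outside it with separated arrays in both comparisons were FBtr0073850, FBtr0077338 and FBtr0084781, at -0.49, -0.49 and -0.48. The limit therefore cuts through a continuous series of values. With the limit at -0.4 there were 77 members, and at -0.6 there were 33.

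The members were mostly of low to middle level. By mean level over the 20 arrays, 20 lay in the lowest 25% of all transcripts, 26 in the next 25%, 7 in the third 25% and 0 in the highest. Their median level was 7.87 in Repo-ATMi and 8.84 in Repo-GAL4 heads, beside medians over all transcripts of 10.48 and 10.47 in the same genotypes. In the Elav comparison the medians over members were 8.15 in Elav-ATMi and 9.46 in Elav-GAL4 heads. The members that share an identifier run are FBtr0076962, FBtr0076963 and FBtr0076964, and FBtr0082860 and FBtr0082862. Whether the transcripts of a run belong to 1 gene or share probes is not given in the sources used here, so these 5 may not be separate measurements.

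In the ElavC155 comparison, which took no part in the choice, most members were lower again. Of the 53, 47 had a difference below 0, where 48.7% of all transcripts did, and 29 were at or under -0.5, where 2.06% of all transcripts were. The median over members was -0.61, against 0.01 over all transcripts. In 33 members both ElavC155-ATMi arrays lay below both ElavC155-GAL4 arrays, a pattern shown by 20.7% of all transcripts, and 1 member, FBtr0071448, showed the opposite separation, as did 19.3% of all transcripts. By limma 9 members fell (adjusted p under 0.05 over 15473 transcripts) and 0 rose, where 0.174% of all transcripts were called lower and 0.33% higher. These 9 made up 33.3% of the 27 falls called in this comparison and 17.0% of the members. At an unadjusted p under 0.05 the counts were 27 lower and 1 higher. Fitted on the 8 ElavC155 and ATM8 arrays alone, an alternative added after the data were seen, 10 members passed and 0.155% of all transcripts were called lower. Of these 10, 7 were among the 9, while FBtr0076962 (limma adjusted p = 0.16) and FBtr0082860 (limma adjusted p = 0.06) did not pass. Fitted on the 4 ElavC155 arrays alone, 2 passed.

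**Figure D3:**
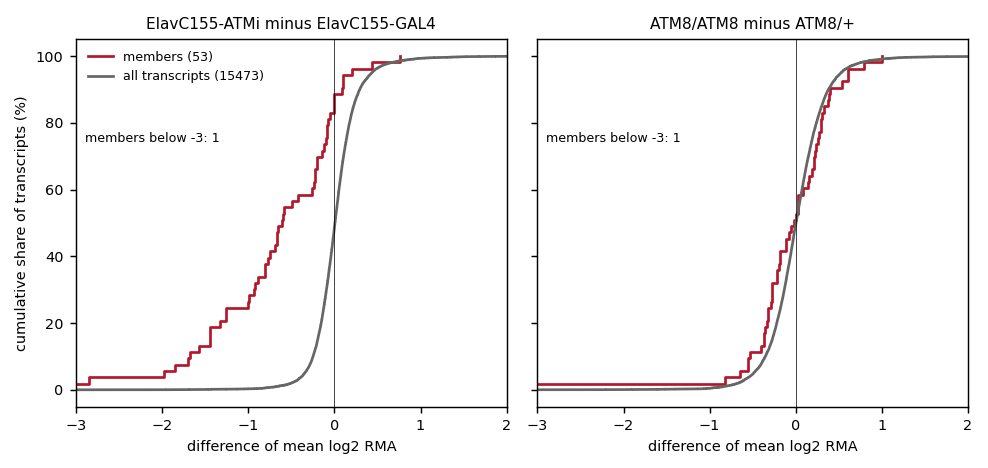
Cumulative share (%) of the 53 members (red) and of all 15473 transcripts (grey) by difference of mean log2 RMA level, for ElavC155-ATMi minus ElavC155-GAL4 (left) and ATM8/ATM8 minus ATM8/+ (right). The members' curve lies to the left of the grey one in the ElavC155 panel, with medians of -0.61 and 0.01, and both curves cross 50% near 0 in the ATM8 panel. The horizontal axis ends at -3 and 2, and FBtr0072462 lies beyond it in both panels.

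The strongest of the 9 was FBtr0072462, at 5.69 and 5.80 in ElavC155-ATMi heads against 11.15 and 11.26 in ElavC155-GAL4 heads. The log2 fold change was -5.46 ± 0.37 (SE, limma adjusted p = 8e-07), a 44.1-fold lower level. FBtr0072462 thus lay between 4.84 and 6.27 in the neuronal knockdown heads of both drivers, and at 10.30 or above in Repo-ATMi heads. The neuronal knockdown levels were dim, so this fold has no measured floor either. The transcript of the next identifier, FBtr0072463, is no member and was looked up after its values were known. It went the other way in the neuronal and in the glial knockdowns. In Repo-ATMi heads it was at 9.14 and 9.30, against 8.62 and 8.65 in Repo-GAL4 heads. It was at 10.95 and 11.32 in ElavC155-ATMi heads against 7.36 and 7.87 in ElavC155-GAL4 heads, and at 8.69 to 9.58 in Elav-ATMi against 7.49 to 7.94 in Elav-GAL4 heads. In ATM8/ATM8 heads it was at 7.61 and 7.38, both below the 7.69 and 7.84 of ATM8/+ heads, a difference of -0.28 ± 0.25 that did not pass (limma adjusted p = 0.70).

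FBtr0080690 fell to 5.98 and 5.91 in ElavC155-ATMi heads, against 8.60 and 9.01 in ElavC155-GAL4 heads, a change of -2.86 ± 0.40 on the log2 scale (limma adjusted p = 0.0025). FBtr0076042 was at 5.98 and 5.72 in ElavC155-ATMi heads against 7.46 and 8.20 in ElavC155-GAL4 heads, a change of -1.98 ± 0.33 (limma adjusted p = 0.0087). Both stood between 5.26 and 5.98 in all 3 kinds of knockdown head, while the driver-only levels differed from driver to driver. FBtr0076962, with 5.18 and 5.19 in ElavC155-ATMi heads against 7.74 and 6.33 in ElavC155-GAL4 heads, changed by -1.85 ± 0.38 (limma adjusted p = 0.038). Its control arrays were far apart. Without ElavC155-GAL4 replicate 1 the change was -1.14 and the call was lost (limma adjusted p = 0.31). It was also lost without either ElavC155-ATMi replicate (adjusted p = 0.22 and 0.24), after quantile normalization (0.078) and with the replicate block (0.072).

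Among brighter members, FBtr0076452 was at 10.35 and 9.94 in ElavC155-ATMi heads against 11.66 and 11.53 in ElavC155-GAL4 heads, a change of -1.45 ± 0.14 (limma adjusted p = 3.3e-05). FBtr0081105 was at 10.26 and 10.31 in ElavC155-ATMi heads against 11.64 and 11.45 in ElavC155-GAL4 heads, a change of -1.26 ± 0.15 (limma adjusted p = 0.00046). The spread within each group was small beside these differences. FBtr0084046, at 9.50 and 9.62 in ElavC155-ATMi heads against 10.87 and 10.91 in ElavC155-GAL4 heads, changed by -1.33 ± 0.27 (limma adjusted p = 0.032). Its call was lost when any 1 of the 4 arrays was left out, with adjusted p between 0.13 and 0.23, and with the replicate block (0.095).

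FBtr0100357 was at 7.34 and 7.44 in ElavC155-ATMi heads against 9.26 and 8.88 in ElavC155-GAL4 heads, a change of -1.68 ± 0.24 (limma adjusted p = 0.003). FBtr0082860 was at 7.74 and 8.24 in ElavC155-ATMi heads against 9.44 and 9.94 in ElavC155-GAL4 heads, a change of -1.70 ± 0.27 (limma adjusted p = 0.007). Calls were lost without ElavC155-GAL4 replicate 2 for FBtr0082860 (adjusted p = 0.11) and FBtr0076042 (0.15), without ElavC155-ATMi replicate 1 for FBtr0082860 (0.11) and without ElavC155-ATMi replicate 2 for FBtr0076042 (0.11). When the ElavC155 arrays were fitted without the other genotypes, 2 members remained called, FBtr0072462 and FBtr0080690, where the count over all transcripts was 3.

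Not every leading member was lower with the second neuronal driver. Of the 10, 6 had lower, separated arrays in the ElavC155 comparison and 3 were called, beside 20.7% and 0.174% of all transcripts. FBtr0080340, the leading member, was at 9.11 and 8.10 in ElavC155-ATMi heads against 9.34 and 7.46 in ElavC155-GAL4 heads, so the groups overlapped and the difference was 0.20 ± 0.48. FBtr0070003 was at 8.02 and 8.54 in ElavC155-ATMi heads against 8.45 and 8.12 in ElavC155-GAL4 heads, a difference of -0.01 ± 0.38. FBtr0073372 and FBtr0076864 also overlapped, with differences of -1.0 ± 0.46 and -0.60 ± 0.43. With errors of this size, the values do not show that these 4 transcripts were unaffected. Among the 44 members that were not called, 38 had a difference below 0 and 24 had lower, separated arrays. Over all transcripts the shares were 48.7% and 20.7%. FBtr0071448, which had the highest difference, was at 7.33 and 6.77 in ElavC155-ATMi heads against 6.72 and 5.86 in ElavC155-GAL4 heads.

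The 20 members whose ElavC155 arrays overlapped or were reversed differed from the other 33 in their driver-only level. Their ElavC155-GAL4 level lay below their Elav-GAL4 level by a median of 0.62 (log2 difference -0.62), against -0.05 for the 33. In the knockdown heads, the median of ElavC155-ATMi minus Elav-ATMi was 0.20 for the 20 and 0.17 for the 33. The ElavC155-GAL4 arrays enter both the overlap and this level, and the rule used the Elav levels, so the values are a description.

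**Figure D4:**
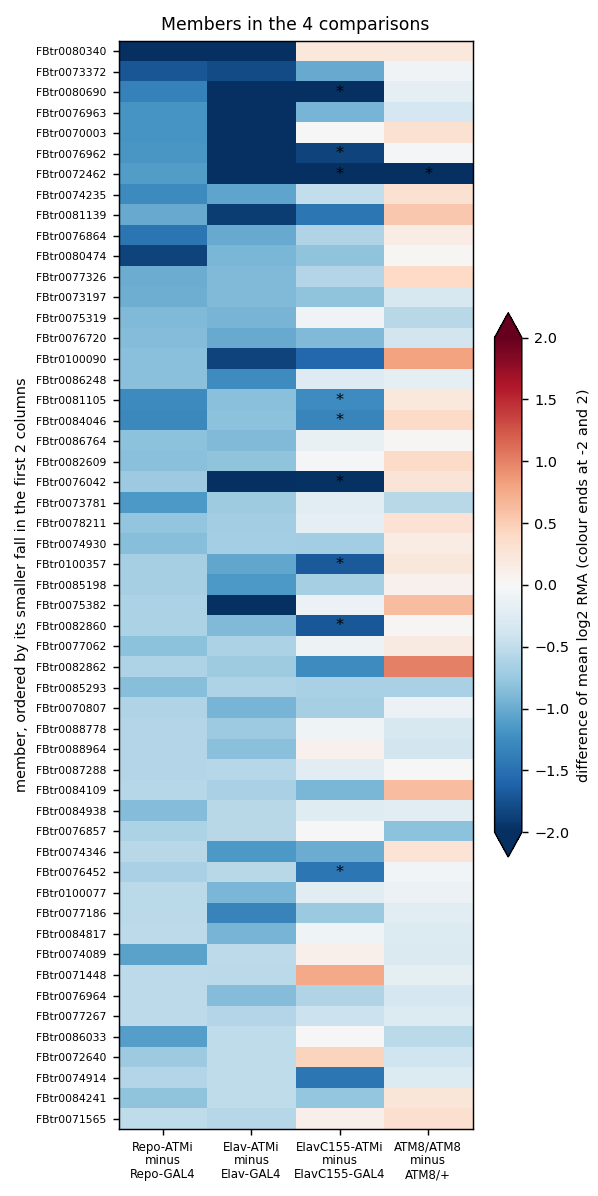
Difference of mean log2 RMA level (blue for lower and red for higher in the ATMi or ATM8/ATM8 samples, colours ending at -2 and 2) for the 53 members, 1 row each, in the 4 comparisons. An asterisk marks a limma adjusted p under 0.05 in the 2 comparisons that did not choose the members. Values below 0 fill 47 rows of the ElavC155 column, which has 9 asterisks, and 27 rows of the ATM8 column, which has 1.

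In ATM8/ATM8 heads the members lay on both sides of 0. The median difference was -0.02, against 0.00 over all transcripts, with 27 members below 0 and 26 above it, where 49.4% of all transcripts were below. At or under -0.5 lay 6 members, where 4.71% of all transcripts did. Without ATM8/+ replicate 2 the median over members was 0.15, and with the dimmest 25% of transcripts left out it was 0.02. Its sign was therefore not stable. Both ATM8/ATM8 arrays lay below both ATM8/+ arrays for 15 members, 28.3% of them, and above for another 15, beside 20.5% and 22.9% of all transcripts. By limma 1 member fell (0.64% of all transcripts were called lower) and 0 rose (0.95% were called higher). At an unadjusted p under 0.05, 5 were lower and 3 higher.

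The member that fell was FBtr0072462, at 7.38 and 6.60 in ATM8/ATM8 heads against 11.33 and 11.09 in ATM8/+ heads. Its log2 fold change was -4.22 ± 0.37 (SE, limma adjusted p = 8.7e-06), so that it was lower in all 4 comparisons. FBtr0085293 was the other member with separated arrays and a difference at or under -0.5 in all 4. It was at 9.37 and 9.14 in ATM8/ATM8 heads against 9.95 and 9.86 in ATM8/+ heads, a difference of -0.65 ± 0.18 (limma adjusted p = 0.081). In the ElavC155 comparison its difference was -0.65 ± 0.18 (limma adjusted p = 0.16), and in the Repo and Elav comparisons it was -0.86 and -0.62. Lower levels without overlap in both the ElavC155 and the ATM8 comparison were met by 7 members and by 4.12% of all transcripts. These 7 came from the 33 members with lower, separated ElavC155 arrays. Lower, separated ATM8 arrays alone were met by 20.5% of all transcripts, so no shared fall is read from the 7. The 7 include FBtr0076452, whose ATM8 difference was only -0.05.

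Of the leading members that were dim in knockdown heads, FBtr0076963, FBtr0076962 and FBtr0080690 were also dim in both ATM8 genotypes. FBtr0076963 was at 4.93 and 5.31 in ATM8/ATM8 heads against 5.45 and 5.52 in ATM8/+ heads. FBtr0076962 was at 5.82 and 5.44 in ATM8/ATM8 heads against 5.38 and 5.92 in ATM8/+ heads. FBtr0080690 was at 5.37 and 5.73 in ATM8/ATM8 heads against 5.41 and 6.05 in ATM8/+ heads. For FBtr0076962 and FBtr0080690 the groups overlapped. The called member FBtr0076042 was dim there too, at 5.86 and 6.00 in ATM8/ATM8 heads against 5.81 and 5.52 in ATM8/+ heads.

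The difference between the ElavC155 effect and the ATM8 effect was tested as a contrast in the same fit of all 20 arrays. It passed for 9 members (17.0%), each more negative in the ElavC155 comparison, where 0.388% of all transcripts passed in that direction and 0.355% in the other. Fitted on the 8 ElavC155 and ATM8 arrays alone, 9 members also passed, 8 of them the same, where 0.323% of all transcripts passed in that direction. The median difference over members was -0.53, against -0.00 over all transcripts. Of the 9, 6 had also fallen in ElavC155-ATMi heads: FBtr0080690, FBtr0076042, FBtr0100357, FBtr0084046, FBtr0081105 and FBtr0076452, with differences of effects of -2.68, -2.24, -1.91, -1.71, -1.47 and -1.40. The smallest limma adjusted p among them were 0.0015 for FBtr0076452 and 0.002 for FBtr0081105. In ATM8/+ heads FBtr0080690 and FBtr0076042 were dim, with means of 5.73 and 5.67, near their levels in knockdown heads. Whether such levels left room for a fall was not tested. FBtr0072462, which fell in both comparisons, had a difference of effects of -1.24 ± 0.52 that did not pass (limma adjusted p = 0.42).

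The other 3 were FBtr0100090, FBtr0082862 and FBtr0084109, named because this contrast passed. FBtr0100090 was at 8.56 and 8.51 in ElavC155-ATMi heads against 10.19 and 10.03 in ElavC155-GAL4 heads, and at 9.53 and 9.80 in ATM8/ATM8 heads against 9.0 and 8.74 in ATM8/+ heads. The arrays separated in opposite directions, and the difference of effects was -2.38 ± 0.48 (limma adjusted p = 0.03). For FBtr0082862 and FBtr0084109 the arrays also separated in opposite directions, with differences of effects of -2.26 (limma adjusted p = 0.031) and -1.53 (limma adjusted p = 0.018). Opposite separation was also seen for FBtr0081105, FBtr0084046, FBtr0076042 and FBtr0100357. Over all transcripts, 20.7% separated lower in the ElavC155 comparison and 22.9% higher in the ATM8 comparison, and the share with both was not counted. The 9 were picked by their difference of effects, so these separations are a description. The ElavC155-ATMi arrays of FBtr0082862 were far apart, at 6.44 and 7.88. FBtr0082862 was the one of the 9 that did not pass in the 8 arrays alone (limma adjusted p = 0.17). The 2 effects lie in different sets of arrays, so a difference between comparisons cannot be told apart from one between sets.

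The count of 9 rested on every array of this contrast. It was 2 and 5 without ElavC155-ATMi replicate 1 or 2, 4 without either ElavC155-GAL4 replicate, 3 and 4 without ATM8/ATM8 replicate 1 or 2, and 3 and 2 without ATM8/+ replicate 1 or 2. FBtr0076452 and FBtr0081105 passed in all 15 alternative fits, with adjusted p up to 0.045 and 0.019.

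**Figure D5:**
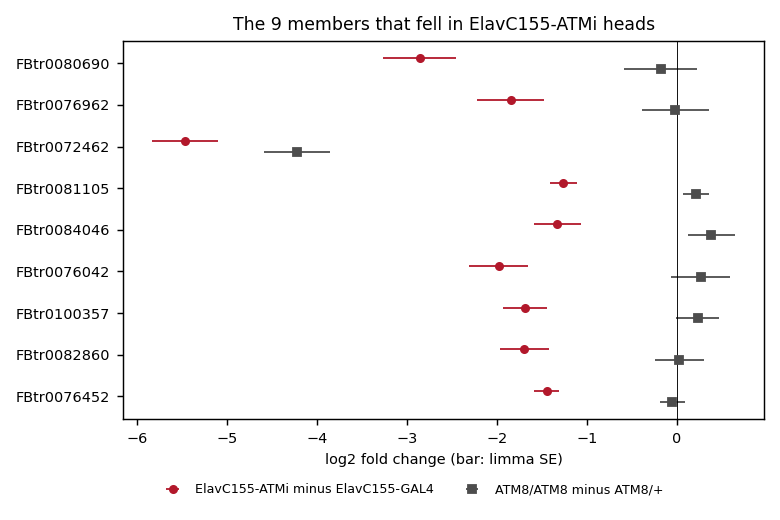
Log2 fold change with its limma SE for the 9 members that fell in ElavC155-ATMi heads, from the ElavC155 comparison (red circles) and from the ATM8 comparison (grey squares). The red circles run from -5.46 to -1.26, and 8 of the 9 grey squares lie between -0.18 and 0.38, with FBtr0072462 apart at -4.22.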

How the data were processed

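Levels were the deposited log2 RMA values of 15473 transcripts on 20 arrays (0 missing), which the authors background-corrected, normalized and summarised over probes with RMA, per the submitters' processing notes. Its version, the probe filter, the annotation release and any normalization in sets were not given in the sources used here. The log2 scale was read from the values. The members and lists were chosen with earlier results of these data known. Tests were two-sided and used lmFit and eBayes of limma 3.58.1 (R 4.3.3), with 8 genotype means over 20 arrays (12 residual and 3.79 prior degrees of freedom), and Benjamini-Hochberg adjustment over all transcripts at 0.05. Errors of fold changes are limma SEs. The number of arrays limits the precision. The scripts were tested on simulated data with known changes. Named are members called in ElavC155 or ATM8, the 10 leading members and the 3 transcripts on each side of the limit. Others named were chosen after their values were seen. Planned gene lists and cell type markers could not be matched to identifiers and were not run. Same-numbered Elav arrays deviated together (r from 0.119 to 0.243 over 4 pairs). Elav-ATMi replicates 2 and 4 were nonetheless closest to Elav-GAL4 replicates 1 and 3. The main fit used no pairing, and pairing by number entered only in the replicate block. Alternatives covered normalization, scaling, arrays fitted, array weights, variance settings, dim transcripts, a replicate block and left-out replicates.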

Additional observations from a re-analysis of the deposited data

Results flagged for a closer look

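In 9 members the ElavC155 effect and the ATM8 effect differed by limma (adjusted p under 0.05). The difference of effects was -2.68 for FBtr0080690, -2.38 for FBtr0100090, -2.26 for FBtr0082862, -2.24 for FBtr0076042 and -1.91 for FBtr0100357. It was -1.71 for FBtr0084046, -1.53 for FBtr0084109, -1.47 for FBtr0081105 and -1.40 for FBtr0076452. All 9 were more negative in the ElavC155 comparison. FBtr0080690 and FBtr0076042 were dim in both ATM8 genotypes, and whether this left room for a fall was not tested.

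Within the groups of 4 samples, 2 of the 38 sets of values of named members held an array far from the others, and chance gives about 1 in 20. FBtr0084241 was at 5.76 on 1 Elav-GAL4 array, with the next at 5.39, and FBtr0082860 was at 7.46 on another, with the next at 7.94.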

How the results depend on the processing

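The number of members was 53. It was 33 with the dimmest 25% of transcripts left out, all of them among the 53, and 98 without the separation of arrays. It was 33 with the limit at -0.6 and 124 with Elav replicates 3 and 4 only, of which 50 were among the 53. With Elav replicates 1 and 2 only it was 77, of which 41 were among the 53. With any 1 array left out it ranged from 48 to 78, and 41 to 51 of the 53 stayed members. In the ElavC155 comparison 9 members were called lower. The count was 2 when only the compared arrays were fitted, 16 with array weights and 6 to 7 with any 1 array left out. The median over members ranged from -0.68 to -0.43 with 1 array left out. With the replicate block the ElavC155 count was 9, the ATM8 count 1 and the count for the difference of effects 10. Of these, 7, 1 and 7 were calls without the block. The block lost FBtr0076962 (adjusted p = 0.072) and FBtr0084046 (0.095) in the ElavC155 comparison, and FBtr0076042 (0.083) and FBtr0084046 (0.11) for the difference of effects. Same-numbered arrays correlated at 0.509 in the ElavC155, 0.262 in the ATM8 and -0.14 in the Repo comparison, each from 2 pairs. With 2 arrays per group the deviations mirror each other, so each comparison gives only 1 value. With no label that ties the numbers, these values are at most a hint, and the samples were not taken as paired. In the ATM8 comparison 1 member was called lower, and 2 were after quantile normalization (FBtr0085293 added, adjusted p = 0.045) and without ATM8/ATM8 replicate 2 (FBtr0076857 added, adjusted p = 0.0096), a range of 1 to 2. The median over members there was -0.02, -0.036 after quantile normalization, -0.045 after median centring, 0.023 without the dimmest 25%, and -0.11 to 0.15 with 1 array left out. The members called for the difference of effects numbered 2 to 5 with 1 array left out and 8 to 11 in the other fits. Over all transcripts, falls called in ElavC155-ATMi heads numbered 27, and 3 in the compared arrays alone, 74 with array weights and 14 to 21 with 1 array left out. In ATM8/ATM8 heads they numbered 99, and 39 in the compared arrays alone and 51 to 54 with 1 array left out. A crossed pairing of the Repo replicates, added after seeing the data, gave 331 falls over all transcripts against 207, and the replicate block changed no other count by more than 1.5 times. Fits of fewer arrays have fewer degrees of freedom, and the cause of the other shifts was not tested. No transcript called in the ElavC155 comparison, the ATM8 comparison or for the difference of effects reversed its direction in an alternative fit. Members without a call were not followed one by one.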
